A study of Mus musculus with 12 samples.

Results

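Trophectoderm and placental marker genes were followed in mouse embryonic stem (ES) cells over 3 days after OHT was given to delete Hdac1 and Hdac2. The 32 genes were taken from a list of markers and matched to probes by gene symbol. The rule uses no measured value, although the list was drawn up with earlier results of these data known. They comprise 17 transcription factors, 4 keratins, 3 claudins, 2 Rhox genes, 3 signalling ligands and 3 placental genes with other products. A probe was found for 31 of the 32, of 19057 genes that the array names, and Ly6a, which encodes the surface protein Sca-1, has no value here. These 31 genes had 54 probes, and 25 of them entered the tests among 9934 genes.

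All samples were one genetic kind of cell: E14 ES cells homozygous for loxP-flanked (lox/lox) Hdac1 and Hdac2 and carrying CreER, a Cre recombinase that works once it binds 4-hydroxytamoxifen (OHT). The cells were kept feeder-free on gelatin in medium with fetal calf serum and leukemia inhibitory factor (LIF), and deletion was induced by 16 h in OHT. Samples of days 0, 1, 2 and 3 had 3 Illumina bead arrays each, 12 in all, and the question the design sets is how expression on each later day compares with day 0. The series text calls the day 0 cells wild type, the sample titles mark them as OHT samples too, and whether they had met OHT is not stated. Lines without loxP sites, cells kept as long without OHT and independent clones are not among the samples, so time in culture, OHT itself and the deletion cannot be told apart.

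HDAC1 and HDAC2 are histone deacetylases, which remove acetyl groups from histone tails as subunits of corepressor complexes. The trophectoderm is the outer epithelium of the blastocyst and gives rise to the trophoblast of the placenta. In the mouse embryo TEAD4 with its partner YAP acts upstream of the homeobox factor CDX2 in outer cells, where GATA3, AP-2 gamma (TFAP2C), EOMES and ELF5 also act in the trophoblast lineage. The epithelium itself is built from simple keratins and sealed by claudins of the tight junction, and ES cells normally contribute little to this lineage.

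As a measure of depth, the arrays detected 14509 to 16770 of 45281 probes at a detection p under 0.01, and the upper quartile of the raw intensities lay between 272.2 and 382.2. Over the genes tested, arrays of 1 day correlated at 0.9796 to 0.9935 and arrays of different days at 0.9453 to 0.9927. Hdac2, a targeted gene, had log2 means of 13.32 at day 3 and 13.58 at day 0, differing by -0.26 ± 0.14 (SE; limma, adjusted p = 0.149), and whether its probe lies in the deleted stretch is not given. No probe is named Hdac1. The ES cell identity genes were detected throughout: Pou5f1 averaged 12.91 at day 3 and 13.57 at day 0, Sox2 9.23 at day 3 and 10.03 at day 0, Nanog 13.28 at day 3 and 14.01 at day 0, Zfp42 13.44 at day 3 and 14.10 at day 0, and Esrrb 13.39 at day 3 and 13.96 at day 0. These 5 of 10 such genes fell at day 3 (limma, adjusted p 0.000863 to 0.00704), beside 17.8% of all genes at an adjusted p under 0.05. The other 5 did not pass: Klf4 averaged 11.03 at day 3 and 11.05 at day 0, Klf2 12.34 at day 3 and 12.44 at day 0, Tfcp2l1 12.54 at day 3 and 12.69 at day 0, Tbx3 10.64 at day 3 and 10.48 at day 0, and Dppa3 9.61 at day 3 and 9.69 at day 0.

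The sequences at the start sites of the epithelial members give the setting for what follows. They are the promoters of those keratin and claudin members that were higher at day 3 and have an entry in the promoter table used here. Each runs from 250 bases before to 50 bases after the transcription start (RefSeq, assembly GRCm38.p6) and is written 5′ to 3′ on the strand of the gene. Capitals mark matches, on either strand, to 4 motifs of trophoblast factor families: GCCNNNGGC for AP-2, GGAATG for TEAD, GATAAG for GATA and CCGGAAG for ETS. No matches to 2 of these motifs overlap in these 5 promoters.
Krt7, chr15:101412153-101412452, plus strand: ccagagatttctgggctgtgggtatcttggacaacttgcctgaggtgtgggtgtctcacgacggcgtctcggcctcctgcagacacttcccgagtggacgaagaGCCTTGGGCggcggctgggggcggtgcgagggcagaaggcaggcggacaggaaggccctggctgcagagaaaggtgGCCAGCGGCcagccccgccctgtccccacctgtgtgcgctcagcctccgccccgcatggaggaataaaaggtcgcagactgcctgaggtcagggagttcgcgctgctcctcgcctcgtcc
Krt8, chr15:102004293-102004592, minus strand: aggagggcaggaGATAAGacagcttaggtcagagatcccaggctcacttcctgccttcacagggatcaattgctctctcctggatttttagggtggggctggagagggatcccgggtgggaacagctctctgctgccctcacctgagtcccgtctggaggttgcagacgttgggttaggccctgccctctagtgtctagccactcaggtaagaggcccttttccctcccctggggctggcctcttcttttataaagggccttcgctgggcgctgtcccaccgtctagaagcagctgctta
Krt18, chr15:102027966-102028265, plus strand: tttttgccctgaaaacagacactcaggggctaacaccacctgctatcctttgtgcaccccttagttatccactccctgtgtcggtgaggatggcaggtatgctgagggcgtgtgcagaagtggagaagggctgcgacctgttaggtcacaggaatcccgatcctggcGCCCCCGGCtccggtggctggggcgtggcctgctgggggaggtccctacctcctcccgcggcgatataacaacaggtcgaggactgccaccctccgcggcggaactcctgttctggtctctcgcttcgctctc
Cldn4, chr5:134946885-134947184, minus strand: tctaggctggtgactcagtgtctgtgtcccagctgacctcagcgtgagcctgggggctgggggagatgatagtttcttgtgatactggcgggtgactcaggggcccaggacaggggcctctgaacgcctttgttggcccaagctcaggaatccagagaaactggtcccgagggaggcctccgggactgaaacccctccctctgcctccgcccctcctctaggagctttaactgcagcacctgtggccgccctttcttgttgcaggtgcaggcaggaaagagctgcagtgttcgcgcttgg
Cldn6, chr17:23679115-23679414, plus strand: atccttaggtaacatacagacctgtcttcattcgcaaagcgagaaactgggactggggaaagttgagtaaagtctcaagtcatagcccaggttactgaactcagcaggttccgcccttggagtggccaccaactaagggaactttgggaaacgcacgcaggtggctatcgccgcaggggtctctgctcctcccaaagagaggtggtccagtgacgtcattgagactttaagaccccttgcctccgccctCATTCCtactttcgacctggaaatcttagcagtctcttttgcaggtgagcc

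The Krt7 promoter holds 2 AP-2 matches, starting 146 and 70 bases before the transcription start, and Krt18 holds 1, starting 83 bases before it. The Krt8 promoter holds a GATA match 238 bases before the start. In Cldn6 a TEAD match in reverse orientation begins 1 base before the start, and Cldn4 holds none of the 4 motifs. Across all members, 23 genes matched the table with 28 promoters. An AP-2 match was found in 7 of the 28, against 16.6% of all 32851 promoters of the table. TEAD matches were found in 5 (14.7% of all), GATA matches in 3 (7.4% of all) and ETS matches in 3 (8.9% of all). The members' promoters were richer in G and C than all promoters, with a median of 60.8% against 52.7%, and their median ratio of observed to expected CpG was 0.61 against 0.38. These matches describe letters in a fixed window and were not tested as binding sites.

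Detection separated the members into a group near background and a group measured on every day. A probe counts as detected on an array where its detection p, the share of negative control probes that are brighter, is under 0.01. In all, 21 members had a probe detected on all 12 arrays, and on each single day 23 members had a probe detected on its 3 arrays. Eomes, Elf5, Hand1, Esx1, Msx2 and Tpbpa were detected on no array of any day, over 9 probes. Eomes and Elf5 are T-box and ETS factors of trophoblast stem cells, Hand1 is a bHLH factor of trophoblast giant cells, Esx1 and Msx2 are homeobox factors, and Tpbpa is a marker of the spongiotrophoblast. Of these 6 genes, 5 encode transcription factors, as do 17 of the 31 members with a probe. Hand1, Esx1, Msx2 and Tpbpa each rest on a single probe, and a probe can miss a gene that is expressed. A further Krt8 probe, for example, was detected on no array although another read Krt8 on every array. Detection on no array therefore does not show that a gene is silent. For Hand1 the highest array was replicate 2 of day 3, at 6.35, beside 5.35 and 5.53 on the other day 3 arrays and 5.26, 5.11 and 4.85 at day 0, and the lowest log2 value of any detected probe on that highest array was 6.37. All keratins, claudins, Rhox genes and ligands had at least 1 probe that passed the filter of detection on 3 of the 12 arrays.

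Gata3 was the only member undetected on all day 0 arrays and detected on all day 3 arrays: the count of arrays above the threshold was 0 at day 0, 1 at day 1, 2 at day 2 and 3 at day 3. Tfap2a went the other way on its brightest probe, with 3 arrays on each of days 0, 1 and 2 and 2 at day 3. Cldn7 was detected on 3 arrays at day 0 and on 2 at each later day, and Plac1 on 2 arrays at day 0 and 3 at each later day. The brightest Ascl2 probe likewise gained 1 array after day 0, while the second Ascl2 probe was detected on all 12. Of the 54 probes, 16 were detected on no array and 17 did not pass the filter.

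**Figure D1:**
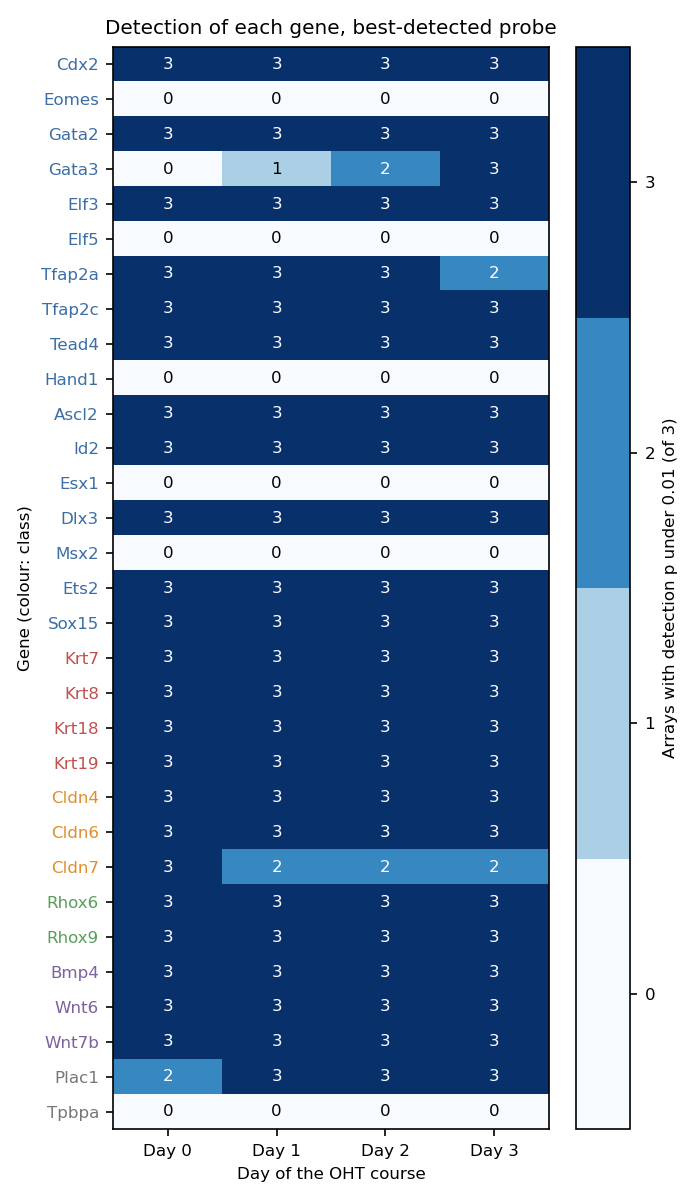
Detection of the 31 members with a probe. Each cell gives, for the best-detected probe of a gene (vertical axis, grouped by class) on one day (horizontal axis), the number of the 3 arrays on which its detection p was under 0.01. Most genes read 3 on every day, 6 read 0 on every day, and Gata3 reads 0, 1, 2 and 3 over days 0 to 3.

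Compared with day 0, most keratin, claudin and Rhox members rose, while among the transcription factors some rose, fewer fell and the rest were not called. At day 3, 14 of the 25 members tested were higher and 2 were lower, beside 21.4% of all 9934 genes higher and 17.8% lower (limma, Benjamini-Hochberg adjusted p under 0.05). One of the 14 is Gata3, which passed the filter through its later days alone. By class, 4 of 4 keratins, 2 of 3 claudins, 2 of 2 Rhox genes, 1 of 3 ligands and 5 of 12 transcription factors, Gata3 among them, rose at day 3. Both genes that fell were transcription factors, 2 of the 12, a share near that of all genes. At day 2, 10 members were higher and 1 was lower, beside 14.8% of all genes higher and 7.60% lower, and by class these were 3 keratins, 2 claudins, 2 Rhox genes and 3 transcription factors. The comparisons of days 1, 2 and 3 share the day 0 arrays. On bulk arrays a larger share of cells expressing a gene and more RNA per cell cannot be told apart.

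The median log2 difference of the 25 members was 0.15 at day 1, 0.29 at day 2 and 0.40 at day 3, beside medians over all genes of 0.02, 0.03 and 0.01. With Gata3 at its lower bound the member median was 0.21 at day 2 and 0.40 at day 3. At day 3 the class medians were 1.27 for the Rhox genes, 0.56 for the claudins, 0.53 for the keratins and 0.30 for the transcription factors. In 15 members all day 3 arrays lay above all day 0 arrays, beside 24.3% of all genes, and in 3 members all lay below, beside 2088 of the 9934 genes. At day 2 all arrays lay above day 0 in 13 members and below it in 3, beside 22.8% and 16.1% of all genes. With no scaling between arrays, which leaves the raw brightness of each array in the values, 7 members rose and 1 fell at day 3. Without background correction the differences of dim members were smaller, such as 0.87 for Rhox6 and -0.44 for Tfap2a at day 3 (limma, adjusted p = 4.99e-06 and 0.00109).

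At day 1 no member passed the test in either direction (limma), as 0.101% of all genes did, which is 10 genes. With the replicate number as a block 20 genes were higher and 4 lower (limma), again with no member among them. At an unadjusted p under 0.05, 5 members were higher and 0 were lower, beside 6.65% and 3.35% of all genes. In 9 members the 3 arrays of day 1 lay above the 3 of day 0, and in 0 they lay below, beside 10.6% and 6.68% of all genes. Plac1 had the widest gap, with 7.12 ± 0.08 at day 1 and 6.48 ± 0.30 at day 0 (SD, n = 3 each; limma, adjusted p = 0.175), followed by Krt7 (7.96 at day 1 and 7.50 at day 0) and Krt19 (7.99 at day 1 and 7.54 at day 0).

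**Figure D2:**
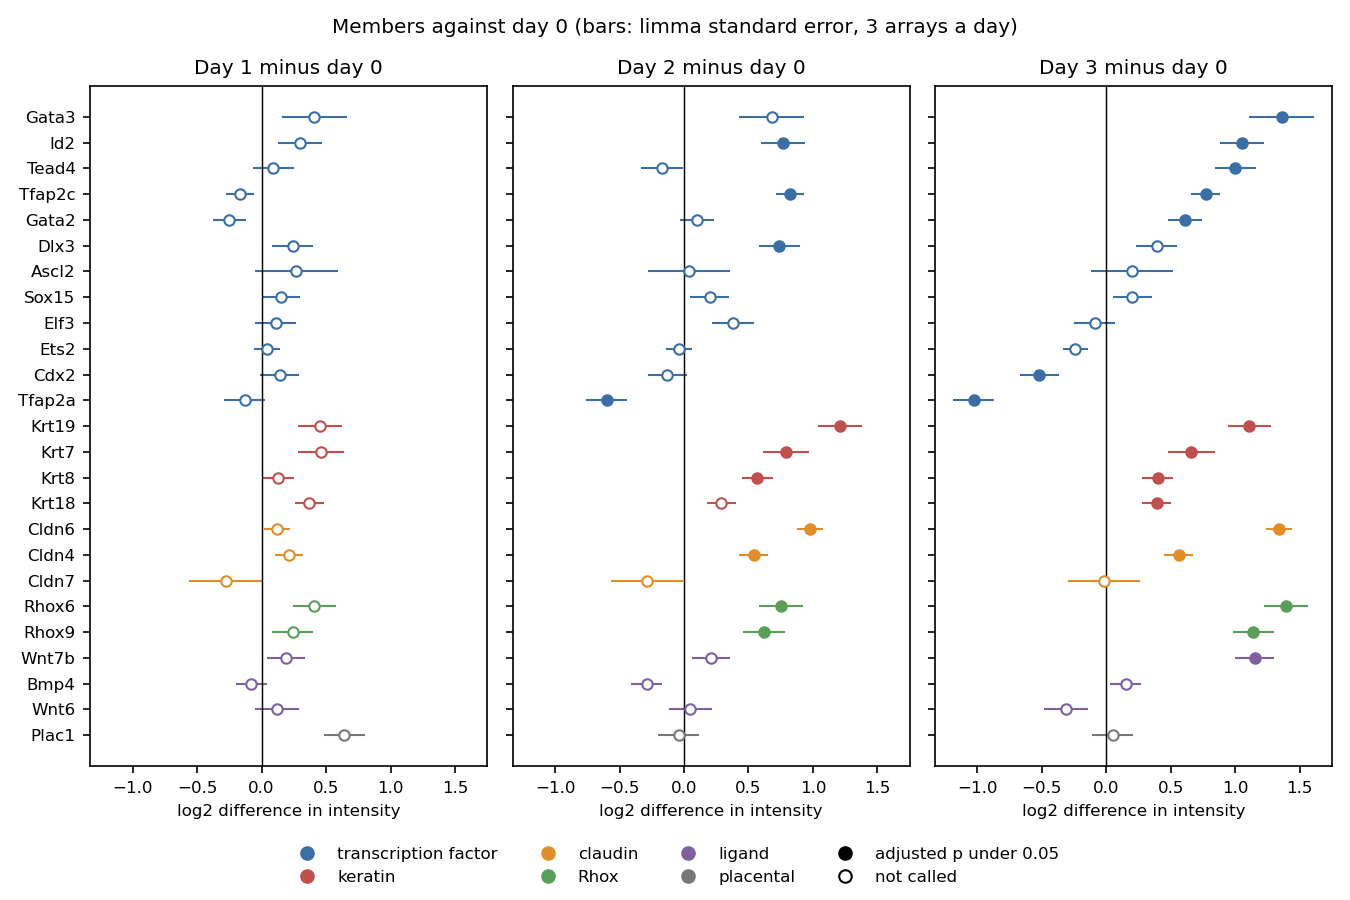
Log2 difference from day 0 of each of the 25 members tested, for days 1, 2 and 3 (horizontal axis, log2 of normalised intensity; one panel per day; colour gives the class, lines 1 SE of limma). Filled points passed an adjusted p of 0.05; no point is filled at day 1, 11 are filled at day 2 and 16 at day 3, where Rhox6 lies farthest right and Tfap2a farthest left, and Gata3 is drawn at its fitted value although it was not above background at day 0.

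Among the transcription factors, 2 members of the AP-2 family moved in opposite directions. Tfap2c, which encodes AP-2 gamma and is used in trophoblast and in early germ cells, read 12.33, 12.19 and 12.31 on the day 0 arrays (log2), averaged 12.11 ± 0.11 at day 1 (SD, n = 3), and read 13.08, 13.05 and 13.18 at day 2 and 12.95, 12.98 and 13.20 at day 3. All arrays of days 2 and 3 lay above all arrays of days 0 and 1. Tfap2c rose at day 2 by 0.82 ± 0.11 (SE) over day 0 (limma, adjusted p = 0.000297) and at day 3 by 0.77 (adjusted p = 0.000191), a 1.70-fold rise. In a fit over all detected probes, of which 36.8% changed at day 3 and 19.1% at day 2, its second bright probe gave 0.81 at day 3 (limma, adjusted p = 0.000349). The dimmest of its 3 probes gave 0.70 at day 3 (limma, adjusted p = 0.00833) and 0.30 at day 2 (adjusted p = 0.266).

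Tfap2a, which encodes AP-2 alpha, read 7.11, 7.47 and 7.75 at day 0, 7.27, 7.13 and 7.53 at day 1, 6.94, 6.75 and 6.86 at day 2, and 6.54, 6.25 and 6.44 at day 3. Every day 3 array was below every array of the other days, and every day 2 array was below those of days 0 and 1. Tfap2a fell by 1.03 ± 0.16 at day 3 against day 0 (limma, adjusted p = 0.000332), a 2.05-fold lower level. The fall at day 2, by 0.60 ± 0.16 (limma, adjusted p = 0.0199), was the one call of a fall on that day. It did not pass without replicate 2 (adjusted p = 0.0568) or replicate 3 of day 0 (0.069), without replicate 2 (0.0713) or replicate 3 of day 2 (0.0513), or with the mean of its detected probes (0.0635). A dimmer Tfap2a probe that no day 3 array detected was there at least 1.15-fold lower, with means of 5.76 at day 3 and 6.28 at day 0 (limma over all probes, adjusted p = 0.0387), and the other 3 were detected on no array.

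Cdx2, the homeobox factor that maintains the trophectoderm programme, was measured near but above background. Its arrays read 7.34, 7.64 and 7.40 at day 0, 7.71, 7.71 and 7.36 at day 1, 7.16, 7.50 and 7.34 at day 2, and 7.09, 6.75 and 6.98 at day 3. The 3 arrays of day 3 were below all others, and the other days overlapped. Cdx2 fell by 0.52 ± 0.15 at day 3 against day 0 (limma, adjusted p = 0.0133), a 1.43-fold lower level. That call was lost without replicate 2 of day 0 (-0.43, adjusted p = 0.0577) or replicate 2 of day 3 (-0.43, adjusted p = 0.056). At day 2 the difference was -0.13, with a 95% interval of -0.45 to 0.19.

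The GATA factors Gata2 and Gata3, which bind the same core motif and are expressed in trophoblast, were both highest at day 3. Gata2 read 7.51, 7.68 and 8.02 at day 0, 7.41, 7.49 and 7.55 at day 1, 7.91, 7.82 and 7.78 at day 2, and 8.20, 8.39 and 8.44 at day 3. The day 3 arrays lay above the rest, and day 2 overlapped day 0. Gata2 averaged 8.35 ± 0.13 at day 3 and 7.73 ± 0.26 at day 0 (SD, n = 3 each), a rise of 0.61 ± 0.13 (SE; limma, adjusted p = 0.00319). Gata3 averaged 5.55 ± 0.48 at day 0 (SD, n = 3) and read 6.32, 5.61 and 5.94 at day 1, 5.91, 6.36 and 6.43 at day 2, and 7.16, 6.60 and 6.97 at day 3. The day 0 arrays were not above background, so Gata3 was at least 1.71-fold higher at day 3 than at day 0, with a measured mean of 6.91 ± 0.29 at day 3. The fitted difference of 1.36 (limma, adjusted p = 0.00107) uses day 0 values below detection, and Gata3 entered the test through its later days alone. At day 2, with a mean of 6.23, it did not pass (limma, adjusted p = 0.0713), but it did with the replicate number as a block (0.0355).

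Tead4, the DNA-binding partner of YAP, kept to a narrow range until day 2 and was higher at day 3. Its brightest probe read 7.09, 7.08 and 7.09 at day 0, 7.25, 7.06 and 7.19 at day 1, 7.03, 6.92 and 6.78 at day 2, and 8.25, 8.35 and 7.63 at day 3. All day 3 arrays lay above those of day 0, although replicate 3 was nearer to them than the others. The rise was 1.00 ± 0.16 over day 0 (limma, adjusted p = 0.000474), or 1.99-fold. The second Tead4 probe that passed the filter did not show a call. It averaged 7.42 ± 0.50 at day 3 and 7.07 ± 0.18 at day 0 (SD, n = 3 each), a difference of 0.36 (limma over all probes, adjusted p = 0.225). Its day 3 arrays, 7.86, 6.87 and 7.55, overlapped the day 0 arrays at 6.86, 7.19 and 7.15. A further Tead4 probe was detected on 2 arrays and did not pass the filter, and another was detected on no array.

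Id2, an inhibitor of bHLH transcription factors and a target of BMP signalling, passed the test at days 2 and 3. It averaged 9.02 ± 0.02 at day 0 (SD, n = 3) and read 9.32, 9.25 and 9.38 at day 1, 9.50, 9.93 and 9.93 at day 2, and 10.14, 9.68 and 10.39 at day 3. The arrays of days 0, 1 and 2 did not overlap one another, and day 3 overlapped day 2. Id2 was 0.77 ± 0.17 higher at day 2 (limma, adjusted p = 0.00692) and 1.05 ± 0.17 higher at day 3 (adjusted p = 0.000416), a 2.07-fold rise over day 0. Its other 2 detected probes gave 0.79 and 0.76 at day 3 (limma over all probes, adjusted p = 0.0021 and 0.0125).

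Dlx3, a homeobox factor of the placental labyrinth, read 6.48, 6.51 and 6.72 at day 0, 7.12, 6.49 and 6.83 at day 1, 7.50, 7.22 and 7.20 at day 2, and 6.89, 7.09 and 6.89 at day 3. The day 2 arrays were above all others. Dlx3 rose by 0.74 ± 0.16 at day 2 (limma, adjusted p = 0.00586), while at day 3 the difference of 0.39 did not pass (adjusted p = 0.0706), though it did without replicate 1 (0.0477) or replicate 2 (0.0425) of day 1, which change the shared spread. Elf3, an epithelial ETS factor, averaged 9.85 at day 2 and 9.47 at day 0; the difference of 0.38 (limma, adjusted p = 0.105) passed without replicate 3 of day 0 (0.0342). At day 3 Elf3 averaged 9.38. Ets2, an ETS factor of trophoblast stem cells, averaged 9.53 at day 3 and 9.77 at day 0, and its interval of -0.46 to -0.02 went with an adjusted p of 0.0758 in limma, and 0.0488 with the replicate number as a block. Sox15, an HMG-box factor of giant cell differentiation, differed by 0.20 at day 3 (95% interval -0.11 to 0.52), and Ascl2, a bHLH factor needed for spongiotrophoblast, by 0.20 (-0.49 to 0.89). Replicate 2 of day 0 was low for Ascl2, at 5.59 beside 6.91 and 6.98.

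**Figure D3:**
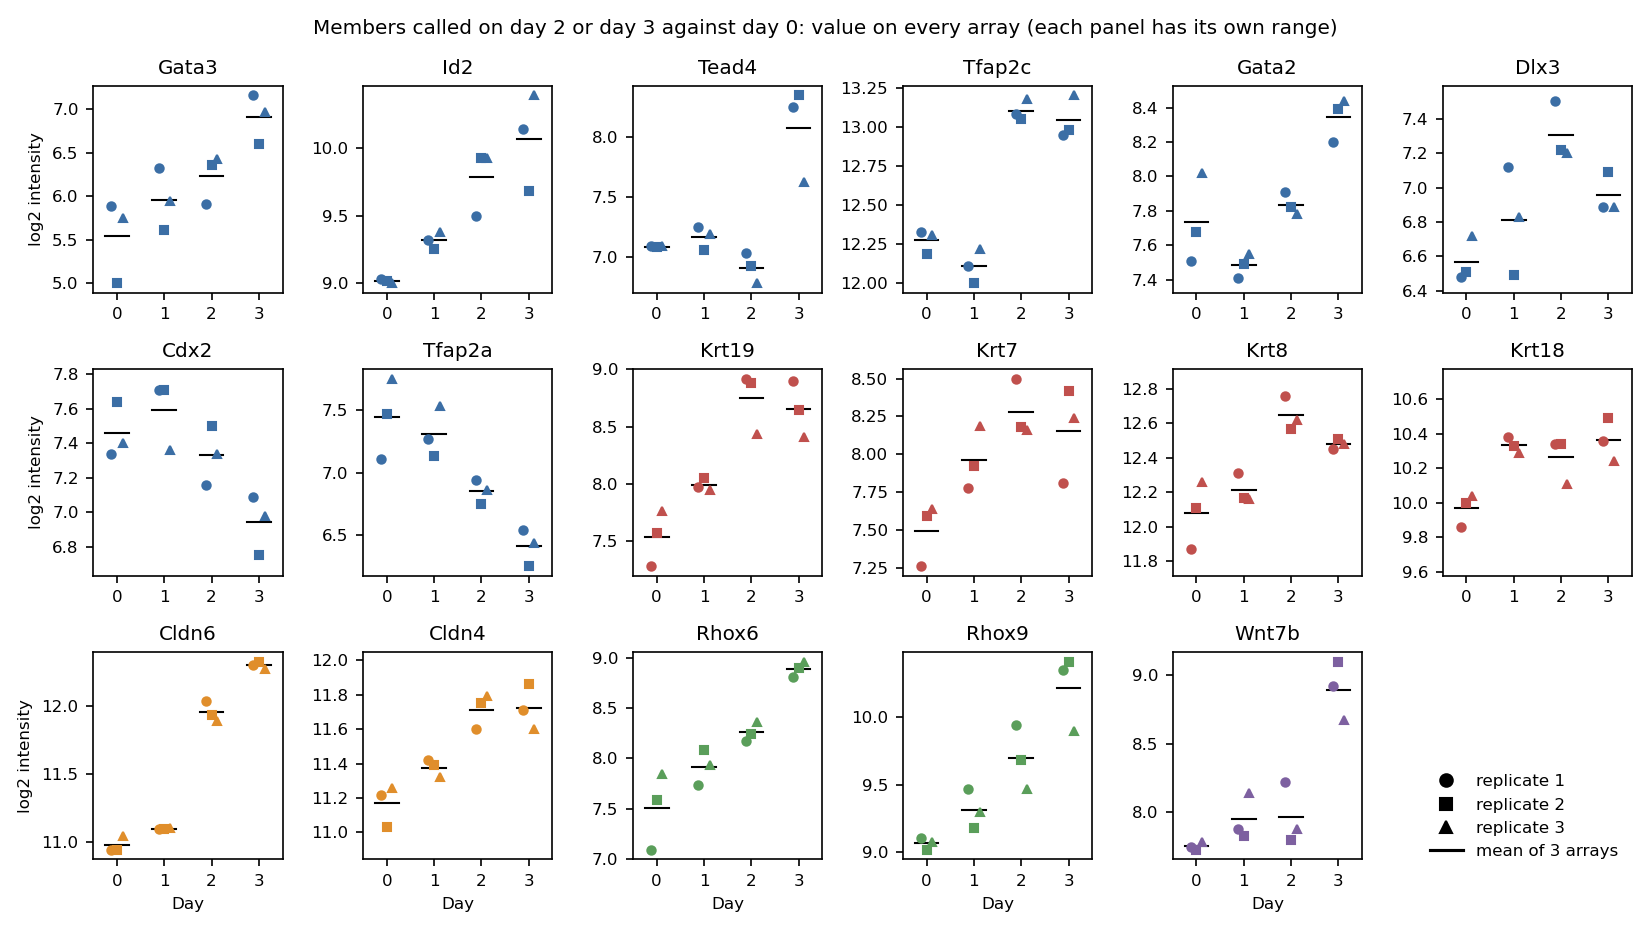
Log2 normalised intensity on each array (vertical axis, with a range of its own in each panel) by day (horizontal axis, 3 arrays per day, marked by replicate) for the 17 members called at day 2 or day 3 against day 0. Colours give the class and short lines the day mean; Cldn6 and Tfap2c step up at day 2, Tead4 and Wnt7b at day 3, and Tfap2a and Cdx2 end below day 0.

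All 4 simple epithelial keratins rose at day 3, and 3 of them at day 2. Keratins form intermediate filaments as pairs of a type II chain (Krt7, Krt8) and a type I chain (Krt18, Krt19), and Krt8 with Krt18 is the pair of early epithelia. Krt19 moved most: it read 7.28, 7.57 and 7.76 at day 0, 7.97, 8.05 and 7.95 at day 1, 8.92, 8.88 and 8.44 at day 2, and 8.90, 8.65 and 8.41 at day 3. Days 2 and 3 overlapped each other and lay above day 1, which lay above day 0. Krt19 rose by 1.21 ± 0.17 at day 2 (limma, adjusted p = 0.000365) and by 1.11 ± 0.17 at day 3 (adjusted p = 0.000256), a 2.17-fold rise. Krt7, a type II chain, read 7.26, 7.59 and 7.64 at day 0, 7.78, 7.92 and 8.19 at day 1, 8.50, 8.18 and 8.16 at day 2, and 7.81, 8.42 and 8.24 at day 3. All later arrays were above those of day 0, and the later days overlapped. The rise of Krt7 was 0.79 ± 0.18 at day 2 (limma, adjusted p = 0.00751) and 0.66 at day 3 (adjusted p = 0.0104), or 1.58-fold.

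Krt8 read 11.87, 12.11 and 12.26 at day 0, 12.31, 12.17 and 12.16 at day 1, 12.76, 12.57 and 12.62 at day 2, and 12.45, 12.51 and 12.48 at day 3. Days 2 and 3 were above day 0, whose arrays spread the most. Krt8 rose by 0.57 ± 0.12 at day 2 (limma, adjusted p = 0.00536) and by 0.40 ± 0.12 at day 3 (adjusted p = 0.0196). Krt18 read 9.86, 10.00 and 10.04 at day 0, 10.38, 10.33 and 10.29 at day 1, 10.34, 10.34 and 10.11 at day 2, and 10.36, 10.49 and 10.24 at day 3. Its arrays of every later day lay above day 0 and overlapped one another. Krt18 rose by 0.39 ± 0.11 at day 3 (limma, adjusted p = 0.0154), a 1.31-fold rise, and at day 2 differed by 0.29 (adjusted p = 0.0863). The day 3 calls of both were lost with scaling to the 75th percentile (Krt8 0.22, adjusted p = 0.227; Krt18 0.28, adjusted p = 0.0988). They were also lost without replicate 1 of day 0 (adjusted p = 0.0786 for Krt8 and 0.0556 for Krt18) or replicate 2 of day 3 (0.053 and 0.06). The same held with only the arrays of the 2 days compared (limma, adjusted p = 0.074 and 0.0618) and with no scaling between arrays (0.743 and 0.632). At day 2, scaling to the 75th percentile also ended the Krt8 call (adjusted p = 0.0928).

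Claudins 4 and 6 rose, and claudin 7 stayed near the limit of detection. These tetraspan proteins form the strands of tight junctions. Cldn6, which is known from early epithelia of the embryo, read 10.94, 10.94 and 11.04 at day 0, 11.09, 11.09 and 11.10 at day 1, 12.04, 11.94 and 11.89 at day 2, and 12.31, 12.33 and 12.28 at day 3. No arrays of different days overlapped, and the order followed the days. Cldn6 rose by 0.98 ± 0.10 at day 2 (limma, adjusted p = 4.5e-05) and by 1.34 ± 0.10 at day 3 (adjusted p = 1.1e-06), a 2.52-fold rise that has the smallest p of any member. Cldn4 read 11.22, 11.03 and 11.26 at day 0, 11.42, 11.39 and 11.32 at day 1, 11.60, 11.75 and 11.79 at day 2, and 11.71, 11.86 and 11.60 at day 3. Days 2 and 3 overlapped and were above day 1, and day 1 was above day 0. Cldn4 rose by 0.54 ± 0.11 at day 2 (limma, adjusted p = 0.00515) and by 0.56 ± 0.11 at day 3 (adjusted p = 0.00214), or 1.47-fold. Scaling to the 75th percentile ended the Cldn4 call at day 2 (adjusted p = 0.06). Cldn7 differed by -0.02 at day 3 against day 0, with a 95% interval of -0.62 to 0.58, and its arrays spanned 5.65 to 6.77 over the 4 days.

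Both Rhox genes rose at day 2 and again stood higher at day 3. Rhox genes are a cluster of X-linked reproductive homeobox genes expressed in placenta and germ cells. They are related in sequence, and whether each probe reads 1 of them alone was not tested. Rhox6 read 7.09, 7.58 and 7.84 at day 0, 7.73, 8.08 and 7.93 at day 1, 8.17, 8.24 and 8.36 at day 2, and 8.81, 8.90 and 8.96 at day 3. Days 1, 2 and 3 followed each other without overlap, and day 1 overlapped day 0. Rhox6 rose by 0.75 ± 0.17 at day 2 (limma, adjusted p = 0.0072) and by 1.39 ± 0.17 at day 3 (adjusted p = 5.01e-05), which is 2.62-fold. Rhox9 read 9.11, 9.02 and 9.08 at day 0, 9.47, 9.18 and 9.30 at day 1, 9.94, 9.68 and 9.47 at day 2, and 10.35, 10.41 and 9.90 at day 3. All later arrays were above day 0, while day 2 met day 1 at 9.47 and day 3 overlapped day 2. Rhox9 rose by 0.62 ± 0.16 at day 2 (limma, adjusted p = 0.0135) and by 1.14 ± 0.16 at day 3 (adjusted p = 0.000125), or 2.21-fold. Without replicate 1 of day 2 its day 2 difference was 0.50 and did not pass (adjusted p = 0.0567).

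Of the ligands, Wnt7b was called against day 0 and Bmp4 and Wnt6 were not. Wnt7b, a WNT protein that acts at the junction of chorion and allantois, read 7.74, 7.72 and 7.78 at day 0, 7.87, 7.82 and 8.14 at day 1, 8.22, 7.79 and 7.87 at day 2, and 8.92, 9.10 and 8.67 at day 3. The day 3 arrays stood clear of all others. Wnt7b rose by 1.15 ± 0.15 at day 3 (limma, adjusted p = 7.43e-05), a 2.22-fold rise, and a second probe rose by 0.53 (limma over all probes, adjusted p = 0.00328). At day 2 its difference was 0.21 (95% interval -0.11 to 0.53). Bmp4, a ligand of the BMP pathway needed for extraembryonic ectoderm signalling, read 11.24, 11.33 and 11.19 at day 0, 11.06, 11.36 and 11.10 at day 1, and 11.54, 11.44 and 11.24 at day 3, with an average of 10.96 ± 0.05 at day 2 (SD, n = 3). Its day 2 arrays were the lowest and below all of day 0, and day 3 overlapped day 0. The Bmp4 difference was -0.29 at day 2 (limma, adjusted p = 0.102) and 0.15 at day 3 (adjusted p = 0.335).

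The 2 Bmp4 probes differed in sign at day 3, where the dimmer gave -0.40 (limma over all probes, adjusted p = 0.103). That dimmer probe fell by 0.74 at day 2 (limma over all probes, adjusted p = 0.0148). The Bmp4 fall at day 2 also passed with the mean of both probes (-0.51, adjusted p = 0.0136) and with scaling to the 75th percentile (-0.45, adjusted p = 0.0228). Wnt6, another WNT ligand, differed by -0.31 at day 3 (95% interval -0.68 to 0.06). Plac1, an X-linked gene expressed in trophoblast, was 6.60, 6.61 and 6.38 at day 3 and 6.47, 6.19 and 6.78 at day 0, with a difference of 0.05 (95% interval -0.29 to 0.39). Only its day 1 arrays, at 7.20, 7.07 and 7.08, stood above the rest.

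**Figure D4:**
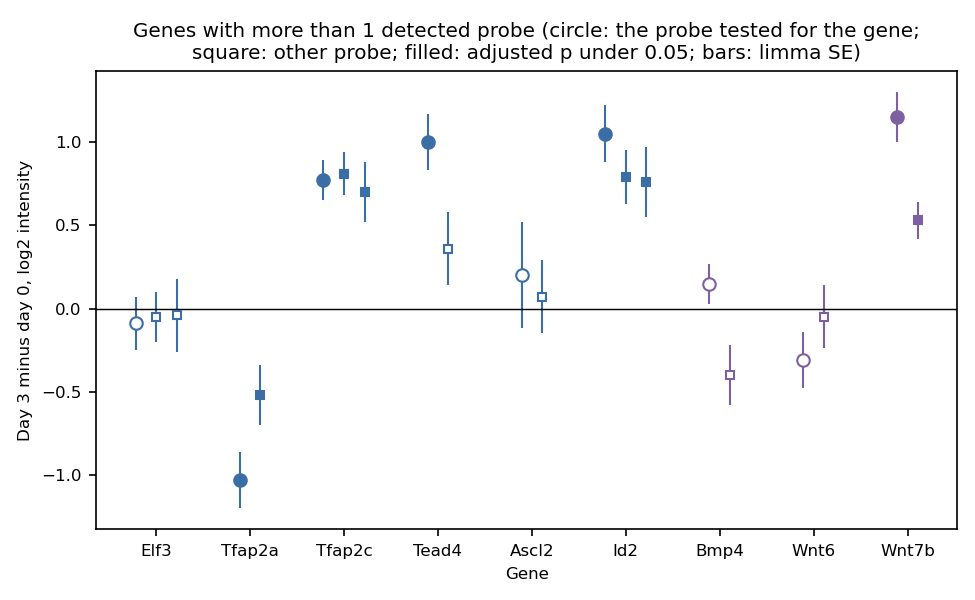
Log2 difference of day 3 from day 0 (vertical axis; lines give 1 SE of limma) for each detected probe of the 9 members with more than 1 such probe (horizontal axis). Circles are the probes that represent their gene in the tests, squares the other probes, and filled points passed an adjusted p of 0.05 over all detected probes; those of Tfap2c, Id2 and Wnt7b all lie above 0, those of Tfap2a below it, and only 1 of the 2 Tead4 probes is filled.

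The steps between later days place the changes in time. Between days 1 and 2 the rises of Tfap2c and Cldn6 were the largest among the members: Tfap2c was 13.10 ± 0.07 at day 2 and 12.11 ± 0.11 at day 1, and Cldn6 was 11.96 ± 0.08 at day 2 and 11.09 ± 0.01 at day 1 (SD, n = 3 each; limma, adjusted p = 0.000423 and 0.000401). In all, 4 members rose over that step and 1 fell, beside 7.30% and 3.53% of all genes. The other rises were Krt8 and Krt19, and the fall was Plac1, at 6.44 ± 0.21 on day 2 and 7.12 ± 0.08 on day 1 (limma, adjusted p = 0.0163). Between days 2 and 3, 7 members rose, beside 5.70% of all genes. Tead4 was 8.08 ± 0.39 at day 3 and 6.91 ± 0.13 at day 2, and Wnt7b was 8.90 ± 0.22 at day 3 and 7.96 ± 0.23 at day 2 (SD, n = 3 each; limma, adjusted p = 0.00114 and 0.00215). Gata2 (0.51), Bmp4 (0.44), Cldn6 (0.35), Rhox6 (0.63) and Rhox9 (0.52) had adjusted p-values in limma of 0.0282 to 0.0496. No member passed the test as lower at day 3 than at day 2 (limma), beside 6.70% of all genes, and 4 were lower at an unadjusted p under 0.05, beside 15.4%.

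These smaller steps depended on single arrays. Over the 12 fits that each leave out 1 array, between 2 and 6 members were called higher at day 3 than at day 2, and between 2 and 5 higher at day 2 than at day 1. The count of day 3 against day 2 was 2 without replicate 2 or replicate 3 of day 2 or replicate 2 of day 3, 3 without replicate 1 of day 3 and 4 without replicate 1 of day 2. The count of day 2 against day 1 was 2 without replicate 1 or replicate 2 of day 2. The fall of Plac1 was lost without replicate 1 of day 1 (adjusted p = 0.0614), replicate 2 of day 2 (0.0513) or replicate 3 of day 2 (0.0747). The rises of Tfap2c and Cldn6 at day 2 over day 1, and of Tead4 and Wnt7b at day 3 over day 2, passed in all 12. Across all 4 days, 18 of the 25 members changed by limma's F test, beside 37.6% of all genes.

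Further trophoblast genes were counted beside the members. Of 38 such genes 34 had a probe and 19 were tested. At day 3 against day 0, 9 of the 19 rose and 2 fell (limma, adjusted p under 0.05), beside 21.4% of all genes higher and 17.8% lower. Their median difference was 0.39, beside 0.01 over all genes. Sct, which encodes the hormone secretin, averaged 11.11 at day 3 and 9.60 at day 0, with a rise of 1.51 ± 0.14 (limma, adjusted p = 7.57e-06), and Fabp3, a fatty acid binding protein, averaged 12.26 at day 3 and 11.04 at day 0, with a rise of 1.23 ± 0.14 (adjusted p = 3.13e-05). Phlda2, an imprinted growth-restraining gene of the placenta, fell by 0.62 ± 0.16 (limma, adjusted p = 0.0077) and Slc2a3, a glucose transporter, by 0.41 ± 0.12 (adjusted p = 0.0147). The syncytin genes Syna and Synb and the placental cathepsins Ctsq, Cts7 and Cts8 were detected on no array.

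Genes of the Hippo, BMP and WNT pathways were counted in the same way, beside 21.4% of all genes higher and 17.8% lower at day 3. The shares of falls among the Hippo and WNT genes were near that of all genes. Of 15 Hippo pathway genes tested, 1 rose and 3 fell at day 3. Ccn2 averaged 11.95 at day 3 and 11.04 at day 0 (0.91 ± 0.11; limma, adjusted p = 4.69e-05). Yap1, the partner of TEAD4, averaged 9.04 at day 3 and 10.00 at day 0 and fell by 0.96 ± 0.21 (limma, adjusted p = 0.00322). Lats1, which no day 3 array detected and which entered the test through earlier days, was at least 1.23-fold lower (limma, adjusted p = 0.0362). Of 15 BMP pathway genes, 5 rose and 1 fell. Those that rose most were Id3 (1.56 ± 0.13) and Id1 (1.50 ± 0.10), relatives of Id2 (limma, adjusted p = 3.44e-06 and 8.04e-07), and the receptor-regulated Smad5 fell by 0.36 ± 0.11 (adjusted p = 0.0223). Of 16 WNT genes, 5 rose and 3 fell. Besides Wnt7a, another of the 5 rises came from a probe undetected on days 0 and 1, tested through days 2 and 3 alone. The ligand Wnt7a, which was undetected on days 0 and 1 and entered the test through days 2 and 3 alone, was at least 1.79-fold higher at day 3, with means of 6.97 at day 3 and 5.42 at day 0 (limma, adjusted p = 2.08e-06). Wnt4 rose by 1.39 ± 0.18 (limma, adjusted p = 8.81e-05). Lef1, a nuclear effector of WNT signalling that entered the test through earlier days and that no day 3 array detected, was at least 1.84-fold lower, with means of 5.73 at day 3 and 6.96 at day 0 (limma, adjusted p = 7.76e-05).

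For other keratins, junction genes and Rhox genes the counts stand beside 21.4% of all genes higher and 17.8% lower at day 3. Of 14 other keratins 6 were tested, of which 3 rose and 1 fell at day 3, and 8 were detected too rarely to test. Krt14, a basal keratin of stratified epithelia, averaged 8.69 at day 3 and 6.39 at day 0, a rise of 2.30 ± 0.31 (limma, adjusted p = 0.000109) beside 1.11 for Krt19, and Krt10 fell by 0.84 ± 0.14 (adjusted p = 0.00042). Of 22 other claudin and junction genes tested, 5 rose, a share near that of all genes, and 1 fell. The plakin Ppl averaged 8.50 at day 3 and 6.38 at day 0, with a rise of 2.11 ± 0.21 (limma, adjusted p = 1.13e-05), Cldn11, detected at day 3 alone and tested through that day alone, was at least 1.65-fold higher, with means of 6.85 at day 3 and 5.06 at day 0 (adjusted p = 1.65e-05), and the protease inhibitor Spint1 fell by 0.45 ± 0.13 (adjusted p = 0.0173). Of 4 other Rhox genes tested, Rhox10 (1.09 ± 0.13; limma, adjusted p = 3.59e-05) and Rhox13 (0.67 ± 0.14; adjusted p = 0.00225) rose.

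Markers of other cell types moved in part beside the members. Their counts stand beside the same shares of all genes at day 3, 21.4% higher and 17.8% lower. Of 10 surface ectoderm genes, 4 were tested and all 4 rose at day 3, among them Krt14 and Sfn (by 1.71), and the summed raw intensity of the 10 was 4474 to 5988 on the day 3 arrays and 2807 to 3397 on the day 0 arrays. Krt5, Krt15, Trp63, Dlx5 and Perp of that list were detected on no array. Of 9 fibroblast genes with a probe 1 was tested, Thy1, which rose by 1.75 ± 0.16 (limma, adjusted p = 5.88e-06), and the summed intensity was 4416 to 5990 at day 3 and 2551 to 3093 at day 0. Col1a2, Col3a1, Lum, Dcn, Postn and Pdgfrb were detected on no array, and Col1a1 on 1 array of day 2. Apart from Thy1 the fibroblast genes were detected on few or no arrays, so their summed intensity does not show a rise of the set. Of 7 primitive endoderm genes tested, 2 rose (Dab2 by 0.85 and Lama1 by 0.32) and Sox7 fell by 0.80, with summed intensities of 6549 to 8800 at day 3 and 7668 to 9004 at day 0. Gata4, Sox17, Foxa2, Afp and Ttr were detected on no array. Of 2 primitive streak genes tested Evx1 fell by 0.93, and the summed intensities of that list were 1971 to 2163 at day 3 and 1914 to 2297 at day 0. Some of these genes, such as Krt14 and Dab2, also count in the lists above. Of the 4 surface ectoderm genes tested, only Sfn is in none of those lists. The part of other cell types in the members' changes was not tested.

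**Figure D5:**
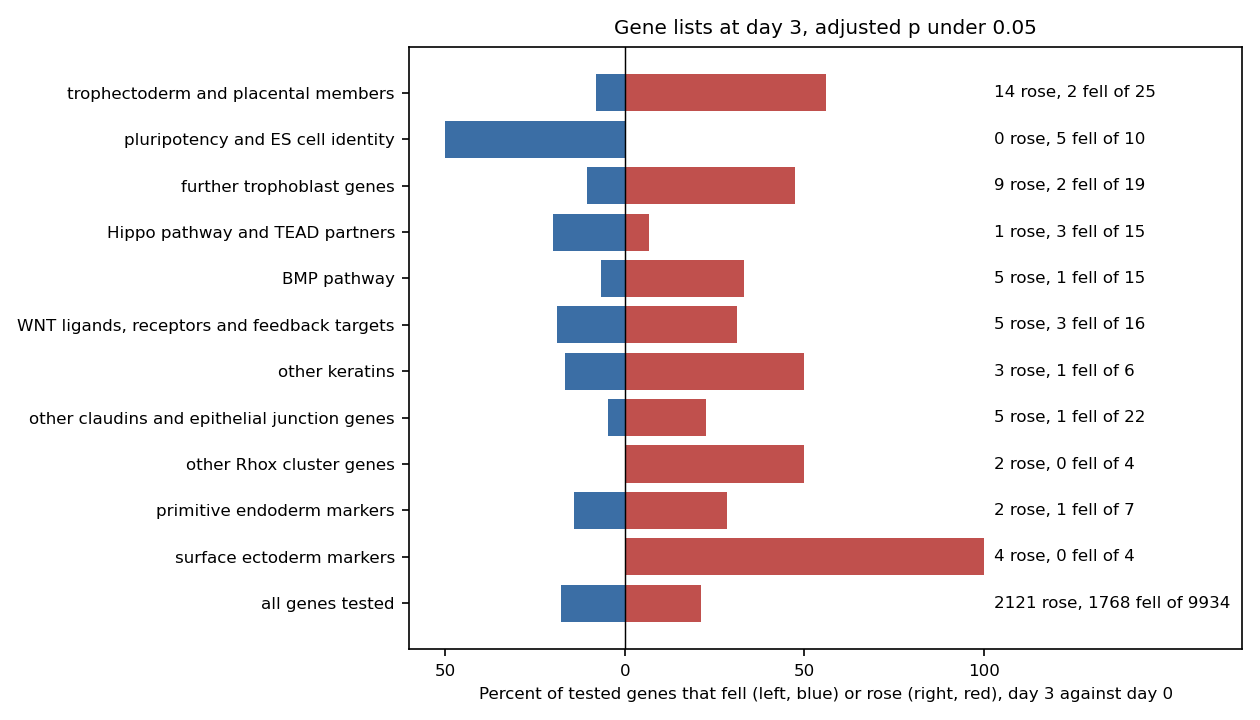
Percent of the tested genes of each list (vertical axis) that rose, drawn to the right, or fell, drawn to the left, at day 3 against day 0 at an adjusted p under 0.05 (horizontal axis), for lists with at least 4 tested genes, with the counts beside the bars. The members have 14 rises and 2 falls of 25, and the bottom bar gives all genes tested, with 21.4% higher and 17.8% lower.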

How the data were processed

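The deposited non-normalized table gives, per probe and array, an intensity on a linear scale that shows no background subtraction or scaling between arrays. The same deposited table holds detection p-values in steps of 1 part in 936, so that each is a probe's rank among as many negative controls. GenomeStudio is the software named, per the submitters' processing notes. A deposited normalized table, also of intensity on a linear scale, has array medians of 196.0 to 196.3 and served as an alternative. How the authors normalized it, slides and scan dates are not given in the sources used here, and 0 per-sample columns were left unused.

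Background correction, quantile normalization and the log2 step were done with neqc (limma 3.58.1, R 4.3.3, offset 16). A probe was kept if at least 3 of 12 arrays had a detection p under 0.01. The series' probe annotation gives 1 gene to 34885 probes, more than 1 gene to 18 and no gene to 10378. Entrez IDs linked 34807 probes to RefSeq's genes (GRCm38.p6), with 0 symbols changed. The detected probe with the highest mean stood for its gene. The model held a mean for each day over the 12 arrays (lmFit, eBayes), with two-sided tests adjusted by Benjamini-Hochberg over 9934 genes. Whether replicates came from separate cultures is not in the labels, so the spread behind each p-value is that of these samples and may be technical. The number of arrays limits the precision. Levels of different genes are not compared. A gene undetected on all arrays of 1 day is given as a bound against the detection limit of those arrays. An adjusted p printed beside such a bound is that of the fitted difference, not of the bound.

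The members and lists were chosen with earlier results of these data known. The text accounts for all 32 members, gives the arrays of members called at day 2 or 3 (for 1 day each of Tfap2c, Gata3 and Id2 as mean and SD), and names at most the 2 largest called rises and 2 largest falls of each other list at day 3. Alternatives were other scalings, no background correction, an offset of 50, other filters, the mean of a gene's probes, a replicate block, the spread of the 2 days alone and leaving out each array. Deviations of same-numbered arrays correlated at 0.20 to 0.44 between days 0 and 1 and at 0.26 to 0.42 between days 0 and 3. Every one of these pairs was over 0.1, which the labels do not explain. With day 2 the range was -0.03 to 0.25 for day 0, -0.02 to 0.26 for day 1 and 0.07 to 0.46 for day 3. The block is therefore given where it changes a call or a count against day 0. The alternatives for steps between later days were added after seeing the data. The fit was tested on simulated data.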

Additional observations from a re-analysis of the deposited data

Results flagged for a closer look

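Tead4 was marked because its arrays lay on opposite sides of day 0 on days 2 and 3. The 3 day 3 arrays, at 8.25, 8.35 and 7.63, were all above the day 0 arrays, and the 3 day 2 arrays, at 7.03, 6.92 and 6.78, were all below them, at 7.09, 7.08 and 7.09. The difference of day 3 from day 2 was 1.17 (limma, adjusted p = 0.00114), with means of 8.08 at day 3 and 6.91 at day 2. The second detected Tead4 probe gave 0.54 over the same step (limma over all probes, adjusted p = 0.141).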

How the results depend on the processing

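The called differences of members kept their direction under all alternatives run; 1286 of the values recomputed kept direction and side of the threshold, 88 lost a call, 14 gained one and 26, all in comparisons where the member had no call, changed sign. With no scaling between arrays, 0 members fell at day 2, 7 rose and 1 fell at day 3, 8 changed over the 4 days, 0 fell at day 2 against day 1 and 0 rose at day 3 against day 2. That setting moved the median of all genes at day 2 to 0.27 and made 97.7% of all calls there rises, against 66.1% with quantile normalization. Scaling to the 75th percentile made 46.6% of them rises and gave 2 falls among the members at day 2. Leaving out single arrays gave 0 to 1 falls at day 2, 1 to 2 falls and 12 to 15 rises at day 3, 2 to 5 rises and 0 to 1 falls at day 2 against day 1, and 2 to 6 rises and 0 to 1 falls at day 3 against day 2. With no background correction, with the deposited normalized values and with the replicate block, 1 member fell at day 3 against day 2.

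Sign changes with no scaling were Cdx2 0.23, Tead4 0.17, Ets2 0.20 and Plac1 0.26 at day 2 and Bmp4 -0.01 at day 3. With the mean of the detected probes Bmp4 was -0.13 at day 3 and Ascl2 0.00 at day 2. Ascl2 at day 2 was -0.03 with cyclic loess, -0.08 with the 75th percentile and -0.01 without background correction or with the deposited values. Cldn7 at day 3 was 0.00 under these last 3 settings. Without single arrays, the day 2 ranges were -0.01 to 0.24 for Gata2, -0.42 to 0.28 for Ascl2, -0.11 to 0.14 for Wnt6 and -0.19 to 0.11 for Plac1. The day 3 ranges were -0.22 to 0.06 for Elf3, -0.25 to 0.44 for Ascl2, -0.22 to 0.27 for Cldn7 and -0.10 to 0.20 for Plac1. The cause was not tested.

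Same-numbered arrays deviated together at -0.03 to 0.46 over 18 pairs, 13 of them over 0.1, other pairs at -0.44 to 0.27, and 28 of 36 best matches shared a number. Pairs with day 2 did not all pass 0.1. Replicate 2 of day 2 correlated at -0.03 to 0.07 with the same number of other days, and replicate 3 of day 2 at 0.25 to 0.46. Whether the numbers pair day 2 with the other days is therefore not settled. With the replicate block, 12 members rose and 1 fell at day 2, 14 rose and 3 fell at day 3, and 20 changed over the 4 days. The block added calls for Gata3 (adjusted p = 0.0355) and Elf3 (0.037) at day 2 and Ets2 at day 3 (0.0488), and changed no other call of a member against day 0. Signal near background limits Gata3, Cldn7, Plac1, Ascl2 and, at day 3, Tfap2a, which read 6.25 on replicate 2 where the lowest detected value was 6.37.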
